A study of Mus musculus with 3 samples.

Results

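Hox genes encode homeodomain transcription factors that lie side by side in 4 clusters, Hoxa, Hoxb, Hoxc and Hoxd, and their order along the chromosome follows the order in which they are used along the body axis and, for the posterior genes of Hoxa and Hoxd, along the growing limb. Twist1, a transcription factor of the basic helix-loop-helix family whose target is the E-box (CANNTG, N being any base), acts in the mesenchyme of the endocardial cushions and of the limb bud. Anterior members such as Hoxb1 act in the hindbrain, and posterior members such as Hoxa13, Hoxb13 and Hoxd13 act at the end of the trunk, in the digits or in the genital tract. The clusters are gene-dense and hold little interspersed repeat sequence.

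Twist1 occupancy near 38 Hox genes (10 of Hoxa, 10 of Hoxb, 9 of Hoxc and 9 of Hoxd, from Hoxa2 to Hoxd13) was read from 3 deposited peak lists of chromatin immunoprecipitation followed by sequencing (ChIP-seq) with anti-Twist1. The samples were endocardial cushions of the atrioventricular canal at E12.5 (ECCs; E, embryonic day), forelimb buds at E10.5, both from FVB/N embryos pooled over litters, and a cultured mouse peripheral nerve sheath tumor line (PNST cells, also labelled FVB/N), with 1 pooled sample of each and no replicate. No treatment, transgene or mutation is given for any sample. A peak was taken as near a Hox gene when the list named that gene as its neighbor on either side at a distance of 0 to 50000 bp. This rule found 6 of the 67468 peaks, 4 of 48965 for limb buds, 1 of 10965 for ECCs and 1 of 7538 for PNST cells. They named 4 of the 38 genes, Hoxa13, Hoxb1, Hoxb13 and Hoxd1, and the other 34 were named by no peak at this distance. With 1 sample per tissue no difference between tissues was tested, and the intervals given are 95% intervals that cover counting error only.

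Depth differed between the lists. After removal of duplicates the ECC list rested on 3149934 tags, the limb bud list on 14893391 and the PNST list on 11823220, and the weakest peaks listed held 5, 8 and 7 tags. On assembled chromosomes the deposited limb bud list holds 47664 peaks, several times the number the study describes. The ECC and PNST lists hold the numbers described there, 10653 and 7259. The tag totals of the limb bud and PNST lists exceed the read numbers of the study before and after removal of duplicates. That of the ECC list exceeds it only before removal. The limb bud values hold for the deposited list only. Most peaks of every list lay in repeated sequence: 98.8% of the ECC peaks on assembled chromosomes, 99.9% of the limb bud peaks and 99.7% of the PNST peaks held at least 1 stretch of 32 bases (a 32-mer) that occurs 2 or more times in the mouse genome. How reads that match several places were assigned is not given in the sources used here.

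The 6 regions are given first with their sequence, because they differ in kind. They are written 5' to 3' on the + strand of the mm9 assembly, with every E-box in capitals. The ECC region near Hoxb1 and the PNST region near Hoxd1 were at chr11:96245839-96245992 and chr2:74645517-74645648.
Hoxb1, ECCs: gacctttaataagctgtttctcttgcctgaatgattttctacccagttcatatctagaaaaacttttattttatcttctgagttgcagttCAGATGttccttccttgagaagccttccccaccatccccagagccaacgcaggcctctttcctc
Hoxd1, PNST cells: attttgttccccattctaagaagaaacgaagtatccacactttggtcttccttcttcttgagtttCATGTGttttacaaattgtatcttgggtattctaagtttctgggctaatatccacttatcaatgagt

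The limb bud regions were chr11:96087402-96087529, chr11:96095512-96095665 and chr11:96105722-96105826, all between Hoxb13 and Hoxb9, and chr6:52254718-52255011 beyond Hoxa13. The first 48 bases of the Hoxa13 region are shown, since all 294 bases are the same 6-base unit, gaggca, written 49 times without an error.
Hoxb13, peak 1: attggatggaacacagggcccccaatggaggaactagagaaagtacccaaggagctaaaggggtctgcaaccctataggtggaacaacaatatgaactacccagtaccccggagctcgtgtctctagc
Hoxb13, peak 2: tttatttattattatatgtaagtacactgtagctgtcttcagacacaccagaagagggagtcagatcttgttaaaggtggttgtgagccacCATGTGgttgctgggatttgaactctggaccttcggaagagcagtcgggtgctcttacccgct
Hoxb13, peak 3: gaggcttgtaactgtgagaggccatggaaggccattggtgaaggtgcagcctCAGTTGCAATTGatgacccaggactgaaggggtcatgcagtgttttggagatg
Hoxa13, limb buds, first 48 bases: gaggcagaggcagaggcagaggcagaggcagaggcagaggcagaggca

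Of the 6 regions, only that near Hoxb1 lay in unique sequence. None of its 32-mers occurs elsewhere in the genome, which was so for 133 of the placed ECC peaks (1.25%), and no other peak of any list shared a 32-mer with it. In the other 5 regions 95.9% to 100% of the 32-mers were repeated, with a median of 14 copies in the third Hoxb13 region, 219 in the Hoxd1 region, 476 and 2479 in the first and second Hoxb13 regions and 26178 in the Hoxa13 region. The first Hoxb13 region shared a 32-mer with 1672 other limb bud peaks (3.51%), the second with 1249 (2.62%), the third with 405 (0.85%) and the Hoxa13 region with 637 (1.34%). The Hoxd1 region shared one with 69 other PNST peaks (0.951%), with 4 limb bud peaks and with 0 ECC peaks. The part of repeated sequence in these peaks was not tested.

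Hoxb1 is the most anterior gene of the Hoxb cluster and acts in the patterning of the hindbrain. In ECCs, the region beyond its end held 5 tags, at a fold enrichment of 28.2 over the local background and a score of 50.98 (MACS writes 10 times the −log10 of the p-value, so that the cut-off of 1e-05 is 50). It lay 17388 bp from Hoxb1 and 62374 bp from Gm11529, the gene on its other side, and overlapped no annotated gene. No ECC peak held fewer tags, where the median of the list is 6. Of the ECC peaks 3.26% had a lower score and 54% a lower fold enrichment. The Hoxb1 peak was thus among the weakest calls of its list by score and near the middle by fold enrichment. Its E-box, CAGATG, began at base 91, with its middle 9 bp from the summit. The nearest limb bud peak was 140013 bp away and the nearest PNST peak 284337 bp away.

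Hoxb13, the most posterior Hoxb gene and known for its role in the tail and the prostate, stands apart from the rest of its cluster, and the 74 kb between it and Hoxb9 held 3 limb bud peaks. The first lay 29861 bp from Hoxb13 with 8 tags, a fold enrichment of 10.42 and a score of 50.92. The second lay 37971 bp away with 10 tags, a fold enrichment of 13.05 and a score of 61.46. The third lay 48181 bp away with 9 tags, a fold enrichment of 18.52 and a score of 71.77. Of the limb bud peaks 0%, 49.5% and 30.1% held fewer tags, 1.91%, 41.4% and 67.3% had a lower score and 13.3%, 30.8% and 88.7% a lower fold enrichment, so that the first of these peaks was weak by all 3 measures and the third stood above most peaks by score and fold enrichment. The first region held no E-box, the second 1 (CATGTG) and the third 2 next to each other (CAGTTG and CAATTG, starting at bases 53 and 59), the first of which was 6 bp from the summit. On their other side the list named Gm53, and at 7252 to 25572 bp it was nearer than Hoxb13 to each of the 3 peaks. No ECC or PNST peak fell in this interval.

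Hoxa13, which is needed for the digits and the genital tubercle, had the most heavily tagged of the 6 peaks. In limb buds, the gaggca repeat 43952 bp beyond it held 25 tags at a fold enrichment of 17.57 and a score of 175.51, and 98.3% of limb bud peaks had a lower score. The uncharacterized gene 5730457N03Rik was much nearer, at 3665 bp. No E-box is present in the repeat. It was the only peak of the 6 that passed a stricter p-value cut-off of 1e-10. Lists of unequal depth can be set at a common floor by asking for the depth-scaled tag number of the weakest ECC peak, which is 24 tags in limb buds and 19 in PNST cells. At that floor the Hoxa13 peak was left, and the Hoxb13 and Hoxd1 peaks were not. The Hoxb1 peak was kept by definition, since every ECC peak meets the floor. A limb bud peak at that floor lay within 50000 bp of 1 of the 38 Hox genes and of 8.24% of all protein-coding genes. For PNST peaks at that floor the values were 0 of the 38 and 1.63%. The nearest ECC peak was 37249 bp from the Hoxa13 region and the nearest PNST peak 314720 bp from it.

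Hoxd1, the most anterior Hoxd gene, was the only Hox gene named in PNST cells. The region lay 43073 bp beyond it and 18352 bp from Mtx2, the mitochondrial outer membrane gene that borders the cluster. It held 7 tags, the smallest number in that list, at a fold enrichment of 12.14 and a score of 55.47. Of the PNST peaks 38.8% had a lower score and 18.6% a lower fold enrichment. The middle of its E-box, CATGTG, was 23 bp from the summit. The nearest limb bud peak was 148433 bp away and the nearest ECC peak 313547 bp away.

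**Figure D1:**
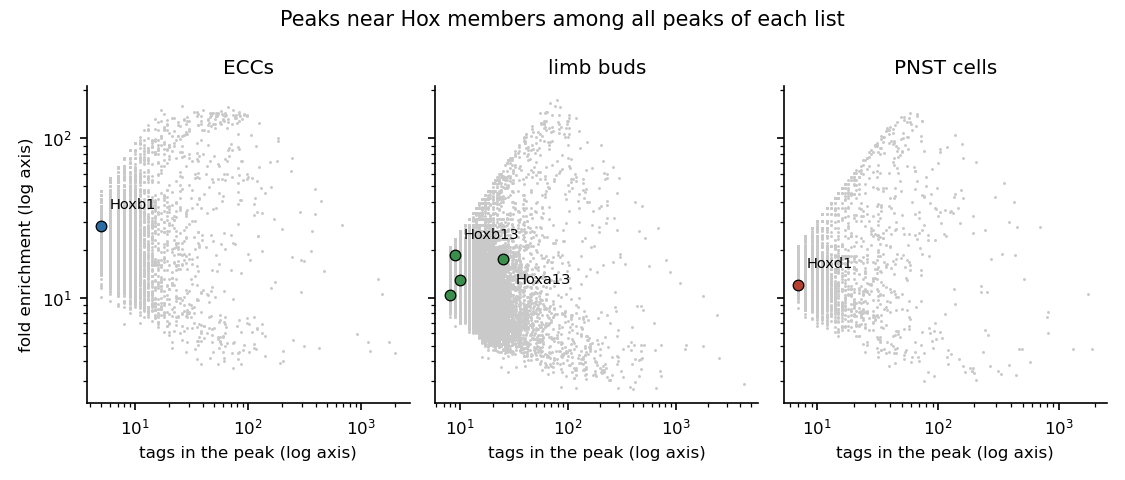
Tags in a peak (horizontal, log axis) against its fold enrichment (vertical, log axis) for all peaks of each list (grey points) and for the 6 peaks near Hox genes (colored points; the 3 points left of the Hoxb13 label are the Hoxb13 peaks). The Hoxb1 and Hoxd1 peaks sit at the lowest tag number of their lists, 5 and 7, and only the Hoxa13 peak, with 25 tags, lies far to the right of that edge.

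No Hox region was shared between tissues. Of the 6 peaks 0 were overlapped by a peak of another tissue, by 5% of their length or by any base, and 0 had a peak of another tissue within 1000 bp. Over the whole lists 34.0% of ECC, 8.86% of limb bud and 18.5% of PNST peaks had at least 5% of their length overlapped, so that 0 of 1, 0 of 4 and 0 of 1 tell nothing particular about the Hox regions. The ECC region, the PNST region and 2 of the 4 limb bud regions held an E-box, beside 54.7%, 56% and 54% of all placed peaks of these lists. With so few regions the Wilson interval of the limb bud share runs from 15% to 85%. Summits of 0 of the 6 lay within 1000 bp upstream of an annotated gene start, where 1.37%, 0.992% and 0.73% of all placed peaks did. The median of tags per 100 bp was 3.25 in the ECC region, 7.5 in the 4 limb bud regions and 5.3 in the PNST region, and 3.49, 6.67 and 5.52 over all peaks of the lists.

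Just outside the limit of 50000 bp, the nearest peak was a limb bud peak at chr15:102700751-102700897, 50811 bp from Hoxc13, with 10 tags and a fold enrichment of 13.05, while the farthest one inside was the third Hoxb13 peak at 48181 bp. No peak named a Hoxc gene within 50000 bp in any tissue. At the other end of that cluster an ECC peak of 12 tags (chr15:102972883-102973237) and a limb bud peak of 9 tags (chr15:102972907-102973055) overlapped over the whole 149 bp of the latter, 106462 and 106486 bp from Hoxc4. They were nearer to Smug1, a DNA repair glycosylase gene, at 10838 and 10814 bp. The ECC region took up the same hexamer as the Hoxa13 region, read on the other strand: all 6 distinct 32-mers of the Hoxa13 region were present in it. The limb bud region, in the irregular part of the same repeat, shared none with the Hoxa13 region.

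Inside the clusters, peaks were almost absent. From the first to the last base of the listed genes the clusters span 98.5 kb (Hoxa, chr6:52112350-52210874), 174 kb (Hoxb, chr11:96055630-96229570), 116 kb (Hoxc, chr15:102751534-102867274) and 96.8 kb (Hoxd, chr2:74506367-74603200). The spans of Hoxa, Hoxc and Hoxd held 0 peaks in all 3 tissues. The span of Hoxb held 0 in ECCs and PNST cells and 3 in limb buds, the peaks between Hoxb13 and Hoxb9 described above. From Hoxb9 to Hoxb1 there was 0, so that no peak lay among the closely packed genes of any cluster. No peak overlapped the body of any of the 38 genes. Of the 22225 protein-coding genes 2336 were overlapped by an ECC peak, 5970 by a limb bud peak and 1521 by a PNST peak. The Hox genes are shorter, with a median of 4082 bp beside 15532 bp over all genes, and so offer less sequence to overlap. No comparison with genes of equal length was made, so that the absence of overlap is a description only.

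Over the 485 kb of the 4 spans the limb bud peaks came to 6.19 per Mb (exact Poisson interval 1.28 to 18.1), beside 18.6 per Mb over the assembled genome, which lies just above the interval. Without the stretch from Hoxb13 to Hoxb9, 0 limb bud peaks in 408 kb allow up to 9.04 per Mb. For ECCs and PNST cells 0 peaks allow up to 7.61 per Mb, and the genome values of 4.16 and 2.84 per Mb are below this, so that a lower density was not detectable at this depth. In the 50 kb on each side of the spans each tissue had 1 peak, 2.5 per Mb (0.0633 to 13.9), near Hoxb1 in ECCs, Hoxa13 in limb buds and Hoxd1 in PNST cells. From 50 to 500 kb away the values were 4.17 per Mb in ECCs (2.33 to 6.87), 17.8 in limb buds (13.7 to 22.7) and 1.67 in PNST cells (0.612 to 3.63), and all 3 intervals include the genome value.

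**Figure D2:**
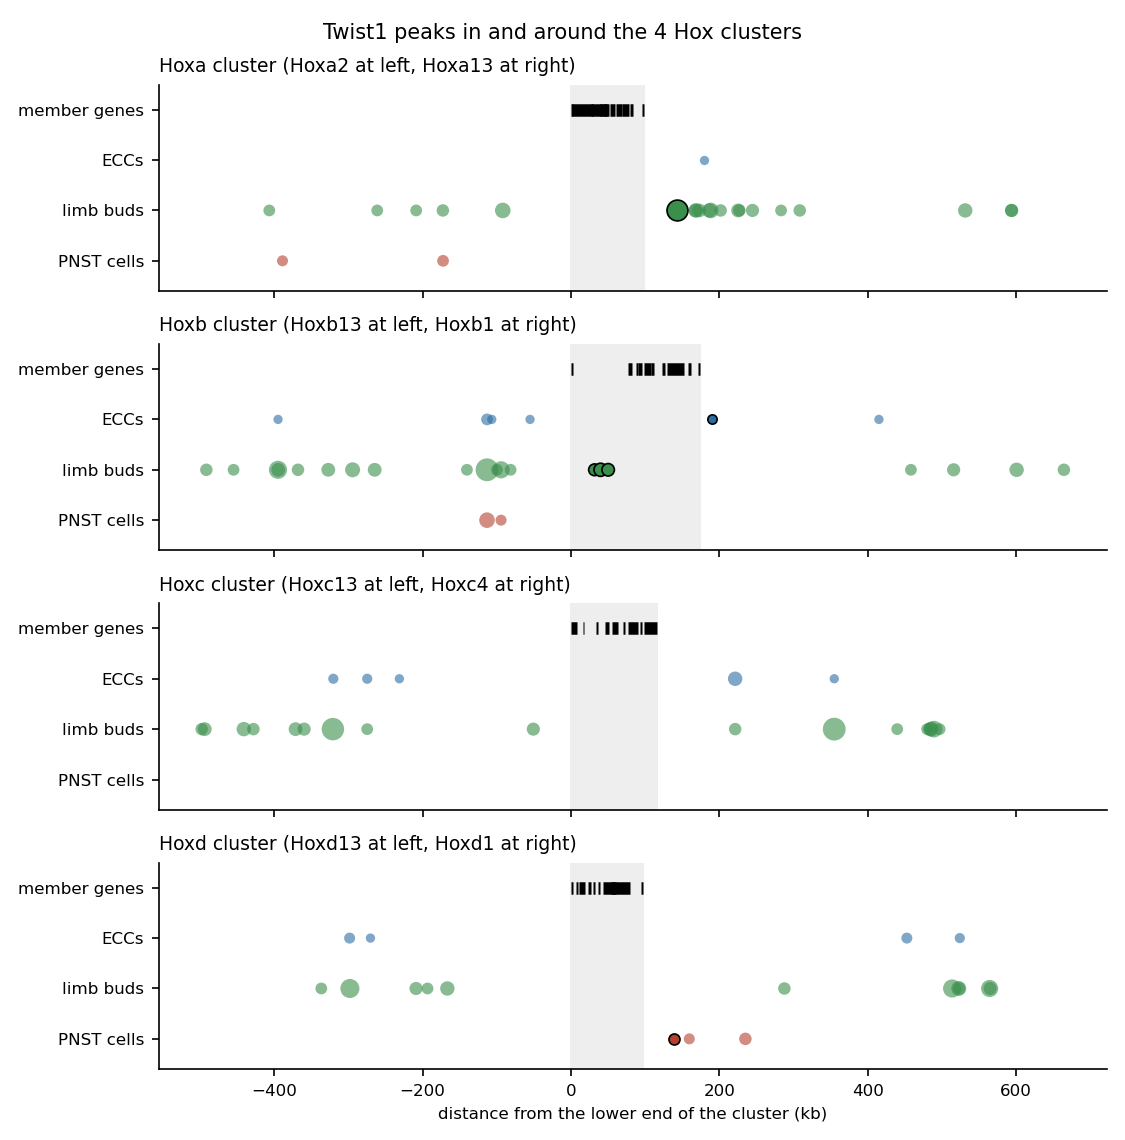
Position of Twist1 peaks within 500 kb of the 4 Hox clusters, in kb from the lower end of each cluster; the shaded part is the cluster span, black bars are the 38 genes and the area of a point is proportional to its tags. Points with a black edge are the 6 peaks near a Hox gene. Within the shaded spans there are only the 3 limb bud peaks between Hoxb13 and Hoxb9.

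**Figure D3:**
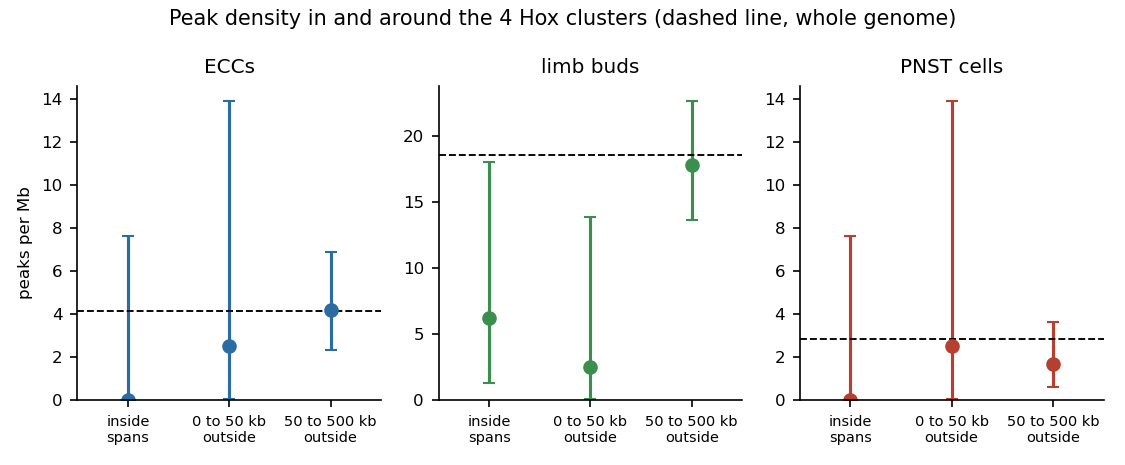
Peaks per Mb inside the 4 spans together, in the 50 kb on each side and from 50 to 500 kb away, with exact 95% Poisson intervals; the dashed line is the value over the assembled genome. In limb buds the points for the spans (6.19) and the near flanks (2.5) lie below the line at 18.6, and the point for the far flanks (17.8) is next to it.

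A list names only the nearest gene on each side, so a gene in the middle of a cluster can go unnamed although a peak is near. Counted by position in the mm9 annotation, a peak lay within 50000 bp of 3 of the 38 genes in ECCs (Hoxb1, Hoxb2 and Hoxb3, all from the same peak), of 6 in limb buds (Hoxa13 and, from the 3 peaks in the Hoxb cluster, Hoxb13, Hoxb9, Hoxb8, Hoxb7 and Hoxb6) and of 1 in PNST cells (Hoxd1). Over all 22225 protein-coding genes the share was highest in limb buds, 84.2%, with 40.3% for ECCs and 25.0% for PNST cells, against 15.8%, 7.89% and 2.63% of the Hox genes. By the names in the lists, 22.5%, 54.0% and 14.6% of all protein-coding genes were named within 50000 bp, against 2.63%, 5.26% and 2.63% of the Hox genes. Hox genes are short, with a median of 4082 bp beside 15532 bp over all genes, and neighbors share the same peaks, so that the 38 are not independent of each other.

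Distance to the nearest peak shows the order of the clusters. In limb buds the median over the 38 genes was 94.8 kb, beside 12 kb over all protein-coding genes. By cluster the median was 53 kb for Hoxb, 87.1 kb for Hoxa, 106 kb for Hoxc and 191 kb for Hoxd, and the lowest Hoxd value, 166 kb for Hoxd13, was above the highest value of each other cluster (121 kb for Hoxb1, 113 kb for Hoxa4 and 128 kb for Hoxc6). In ECCs the median was 131 kb, beside 72 kb over all genes, with 70.6 kb for Hoxb and 300 kb for Hoxd at the ends, and again every Hoxd gene (270 to 356 kb) was farther than every gene of the other clusters (at most 214 kb). In PNST cells the order differed: Hoxd had the lowest median, 107 kb, and Hoxc the highest, 917 kb, with 214 kb over the 38 genes and 150 kb over all genes. Each of these values rests on a few peaks at the edge of a cluster, since genes of a cluster measure their distance to the same peaks.

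**Figure D4:**
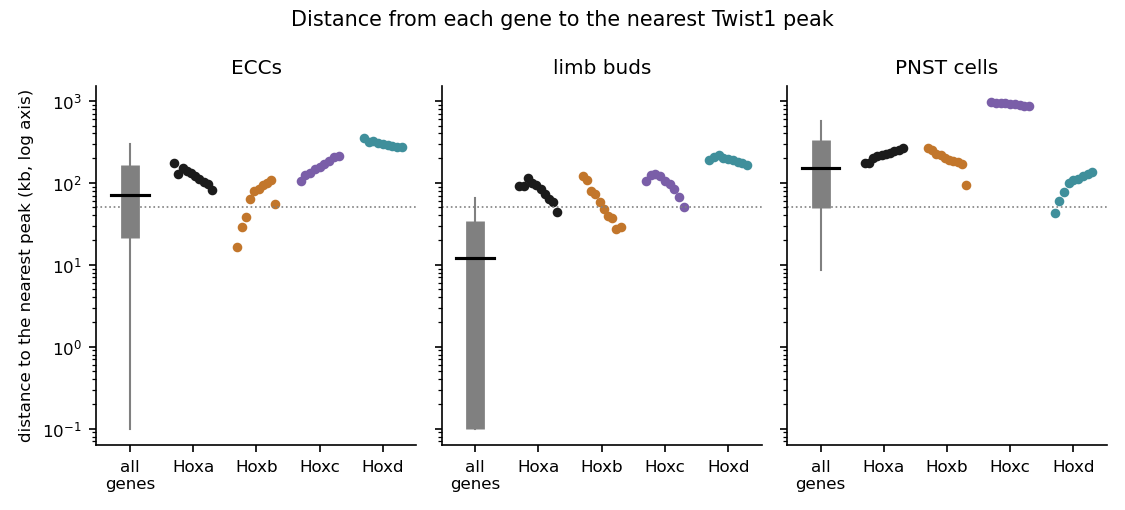
Distance from each gene to the nearest peak in each tissue (log axis, kb) for all protein-coding genes (grey bar, 25th to 75th percentile; thin line, 10th to 90th; black line, median; values under 0.1 kb drawn at 0.1) and for each Hox gene, ordered within a cluster from the lowest to the highest gene number. In limb buds the Hox medians, 53 to 191 kb by cluster, lie above the median of all genes at 12 kb; the dotted line marks 50 kb.

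The clusters can also be placed by the peak-free interval they lie in, with the share of all bases between peaks that lie in intervals as long. In limb buds all 9 Hoxd genes sat in 1 interval of 454 kb and the genes from Hoxb1 to Hoxb9 in 1 of 408 kb, where the median interval of that list is 31.3 kb. Intervals as long hold 2.45% and 3.47% of the bases. The Hoxc genes sat in an interval of 272 kb and the Hoxa genes in 1 of 234 kb, with 10.54% and 15.01% of the bases in intervals as long, and Hoxb13 alone in 1 of 113 kb, with 47.83%. In ECCs the intervals were 943 kb for Hoxa, 723 kb for Hoxd, 453 kb for Hoxc and 245 kb for Hoxb, beside a median of 150 kb. The base shares were 16.16%, 27.3%, 50.2% and 76.44%, so that the ECC intervals around Hoxc and Hoxb were not long for a place in the genome. In PNST cells the Hoxa genes lay in an interval of 4244 kb, with 0.636% of the bases in intervals as long, the Hoxb genes in 1 of 1625 kb (11.92%) and the Hoxd genes in 1 of 939 kb (34.63%), beside a median of 209 kb. For Hoxc no PNST peak was listed between the cluster and the end of the chromosome, and the 1605 kb free of peaks there are cut off by that end. Hoxa thus had the longest peak-free interval of the 4 clusters in ECCs and PNST cells, and in limb buds the shortest apart from that of Hoxb13.

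Repeated sequence is scarce in the clusters, and over the genome windows with more of it more often held a peak, except in the most repeated bin for limb buds and PNST cells. Of the 32-mers of the spans 0.977% (Hoxa), 1.66% (Hoxd), 1.85% (Hoxc) and 5.73% (Hoxb) occur more than once, beside 16.4% over a grid of the assembled chromosomes. Within the 38 gene bodies the share ran from 0% to 3.54% (Hoxc4), with a median of 0.739%. The 74 kb from Hoxb13 to Hoxb9, which held all 3 peaks inside a span, had 10.7% repeated 32-mers, and the 9 genes from Hoxb9 to Hoxb1 with the sequence between them had 2.14%. Over 25445 windows of 100 kb, 34.9% of those with under 2% repeated 32-mers had a limb bud peak, 59.2% of those from 4 to under 6% and 92.7% of those from 20 to under 30%. In ECCs the same bins gave 12.6%, 18.6% and 41.3%, and in PNST cells 4.83%, 11.1% and 33.7%. In windows of 50% or more the shares were 88% for limb buds and 23.7% for PNST cells, below the 95.1% and 36.8% of the bin before, and 57.5% for ECCs, above its 47.8%. The 9 windows that touch a Hox span, which reach beyond the spans, had at most 10% repeated 32-mers. A limb bud peak was in 44.4% of them, an ECC peak in 33.3% and a PNST peak in 11.1%, beside 77.9%, 31.5% and 23.1% of all windows and 64.4%, 21.3% and 14% of the 10925 other windows with at most 10%. Those 10925 windows held more repeated sequence than the 9, with a median of 6.5% beside 4.5%. With 9 windows the comparison is a description. The part of the low repeat content of the clusters in the number of limb bud peaks was not tested.

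**Figure D5:**
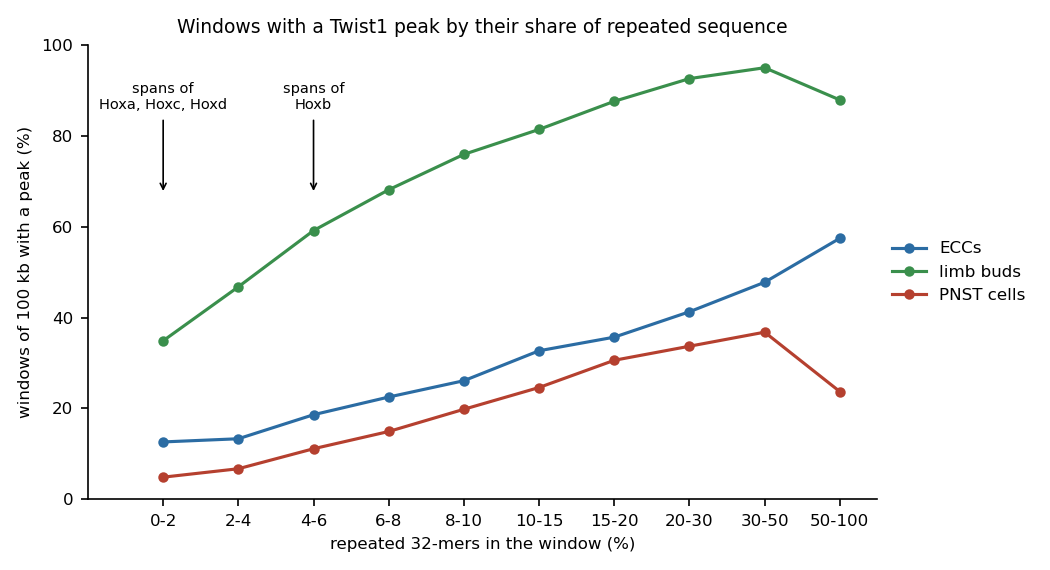
Share of 100-kb windows of the genome with at least 1 peak (vertical, %) against the share of repeated 32-mers in the window (horizontal, binned, %), for the 3 tissues; arrows mark the bins in which the 4 cluster spans fall. In limb buds the share rises from 34.9% in the lowest bin, where Hoxa, Hoxc and Hoxd fall, to 95.1% in the bin from 30 to under 50% and is 88% in the last.

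E-boxes themselves are present in the clusters. The spans hold 1878 E-boxes, 3.87 per kb, beside 5.55 per kb over the assembled chromosomes, with 3.27 in Hoxc, 3.8 in Hoxa, 4.08 in Hoxb and 4.31 in Hoxd, at a GC content of 49.3% beside 41.8%. Pairs of E-boxes separated by 5 bases, a spacing known for Twist1, number 14 in the spans (4 in Hoxa, 6 in Hoxb, 0 in Hoxc and 4 in Hoxd), 28.9 per Mb beside 32 per Mb. In the 300 bases from 250 before to 50 after the gene start, 24 of the 38 Hox promoters (63.2%, Wilson interval 47.3% to 76.6%) hold an E-box, beside 69.6% of all protein-coding genes. Hoxc6 has 4, Hoxa7, Hoxb1, Hoxb4 and Hoxc4 have 3 each, and Hoxa13, Hoxb13 and Hoxd13 have 0. Of the Hox promoters 32 (84.2%) hold no repeated 32-mer, beside 77.3% of all promoters, and the share was highest for Hoxa2, at 27.9%. No peak of any tissue touched a Hox promoter, and these letters alone say nothing about binding.

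Within 500 kb outside the spans, the near ones included, there were 65 peaks in limb buds, 16 in ECCs and 7 in PNST cells. On the Hoxa side that borders Hoxa13 and Evx1, a homeobox gene of the neural tube and the posterior embryo, there were 15 limb bud peaks, 1 ECC peak and 0 PNST peaks, against 5, 0 and 2 on the Hoxa2 side. Evx1 itself had 6 limb bud peaks within 50000 bp, with 9 to 14 tags and at least 87.4% of 32-mers repeated in each. Around Hoxd, whose limb and digit enhancers are known to lie in the gene deserts on either side, limb buds had 5 peaks on the Hoxd13 side and 6 on the Hoxd1 side, with 8 to 21 and 9 to 19 tags. PNST cells had 0 and 3 there and ECCs 2 and 2. From 50 to 500 kb around Hoxd the limb bud value was 12.2 per Mb (6.1 to 21.9), beside 18.6 per Mb over the assembled genome. At least 65.4% of the 32-mers were repeated in each of these limb bud peaks. Whether any of them lies in a Hoxd limb enhancer was not tested. Around Hoxb the Hoxb13 side held 13 limb bud, 4 ECC and 2 PNST peaks and the Hoxb1 side 4, 2 and 0. Around Hoxc no PNST peak was found within 500 kb on either side, beside 17 limb bud and 5 ECC peaks.

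Within these flanks 1 region was called in all 3 tissues, 113 kb from Hoxb13 between Atp5g1 and Calcoco2. It was at chr11:95942400-95942561 in limb buds, with 30 tags at a fold enrichment of 46.67, and its counterparts held 8 tags at 60.47 in ECCs and 14 tags at 39.45 in PNST cells. It had 33.6%, 43% and 37.1% repeated 32-mers in the 3 lists and no E-box in any of them. No other limb bud or PNST peak within 500 kb of a cluster had under 50% repeated 32-mers. Its fold enrichment was the highest within 500 kb of the Hoxb cluster in each tissue. The most enriched limb bud peak around Hoxc, near Copz1 and Mir148b at 239 kb (chr15:103106454-103106621, 30 tags, fold enrichment 67.77), was also called in ECCs, with 5 tags at a fold enrichment of 47. Of the genes of these flanks 15 were listed as cluster neighbors and 14 could be matched by name: 5 were named by a peak within 50000 bp in ECCs (Calcoco1, Evx1, Jazf1, Smug1 and Ttll6), 9 in limb buds and 2 in PNST cells (Mtx2 and Skap2). These shares, 35.7%, 64.3% and 14.3%, stand beside 22.5%, 54.0% and 14.6% over all genes. By position 8, 10 and 4 of the 14 had a peak within 50000 bp (57.1%, 71.4% and 28.6%), beside 40.3%, 84.2% and 25.0% over all genes.

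Of 25 genes that work with or on Hox genes, 15 were named by a limb bud peak within 50000 bp, 4 by an ECC peak and 4 by a PNST peak (60%, 16% and 16%, beside 54.0%, 22.5% and 14.6% over all genes). By position the counts were 19, 6 and 7 (76%, 24% and 28%, beside 84.2%, 40.3% and 25.0% over all genes). Among the cofactors that bind DNA together with Hox proteins, those with limb bud peaks included Meis1, Meis2, Meis3, Pbx3, Pbx4, Pknox1 and Pknox2. In ECCs Pbx4 was named by a peak, with 9 tags at a fold enrichment of 22.05, and in PNST cells Pbx3, with 9 tags at 15.17. Among the Polycomb and trithorax genes that hold Hox chromatin silent or active, Eed and Ezh2 were listed in ECCs, Eed, Rnf2, Suz12 and Kmt2a (Mll1 in the lists) in limb buds and Rnf2 in PNST cells. Of the retinoic acid genes, Cyp26b1 and Rara were listed in limb buds and Cyp26a1 in PNST cells. Cdx4, which drives posterior Hox genes, was the only gene of the 25 named in all 3 tissues, and its strongest peaks held 6 tags in the ECC list, 9 in the limb bud list and 7 in the PNST list. Pbx2, Bmi1, Cbx2, Ring1, Cdx1, Cdx2, Rarb and Rarg were named by no peak within 50000 bp in any tissue. No class of these genes was tested against the share over all genes.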

How the data were processed

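Peaks of Twist1 ChIP-seq in 1 pooled sample of each tissue (E12.5 ECCs, forelimb buds at E10.5 and the PNST line) were used as deposited, in mm9. Per the methods of the study and the file headers, 50 bp reads were mapped with Eland v2 and Bowtie, and the authors ran MACS 1.4.2 on each sample (p-value cut-off 1e-05, band width 300). The headers name no control file, while the methods name FVB/N genomic DNA. The tags of a peak are deposited as raw counts with at most 1 tag kept per position. The deposited fold enrichment is a ratio of summit signal over the background that MACS models nearby. The deposited score is 10 times the −log10 p-value of the authors' peak caller.

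Genes within 50000 bp were those named in the lists, and gene positions came from GENCODE vM1 (mm9). 32-mers were counted on both strands of mm9, with numba 0.67.0 and pysam 0.24.0. The spans run from the first to the last base of the listed genes. E-boxes were searched as CANNTG, which reads the same on both strands, and pairs as CANNTG, 5 bases, CANNTG. Peaks were shared when 5% of the length of the counted peak was overlapped. The Hox genes and the further gene lists were chosen with earlier results of these data known. All peaks near Hox genes are described. Since each tissue is 1 sample, no test between tissues was run. Exact Poisson and Wilson intervals (95%, scipy 1.17.1) cover counting error only. The functions for distances and overlaps were tested on simulated intervals. Reads, the control and expression data were not used here, and some genes are not reported here.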

Additional observations from a re-analysis of the deposited data

How the results depend on the processing

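No paired analysis was possible because each tissue has 1 sample, and no replicate could be left out for the same reason. Of 105 values under alternatives, 65 stayed within 1.5 times the main value or inside its interval and 40 moved. All are counts, rates, shares or medians of tags, so none could change sign. The ECC values at the ECC floor were unchanged by definition, and many other unchanged values were 0 under both settings. The tally therefore does not measure how stable the results are. At a p-value cut-off of 1e-10 the peaks near Hox genes fell to 0 in ECCs and PNST cells and to 1 in limb buds, and the genes named to 0, 0 and 1, where 5.72%, 2.66% and 18.3% of all protein-coding genes still had a peak within 50000 bp by position. Inside the spans 0 limb bud peaks were left at that cut-off (0 per Mb), and the limb bud share with an E-box was 0%. At the depth-scaled tag number of the weakest ECC peak the limb bud values were the same (1 peak, 1 gene, 0 inside the spans, 0 per Mb, 0% with an E-box) and PNST cells had 0 peaks and 0 genes. By position, 8.24% of all protein-coding genes had a limb bud peak within 50000 bp at that floor and 1.63% a PNST peak. The PNST count of 0 thus tells nothing particular about Hox genes. At a fold enrichment of at least 20, limb buds and PNST cells had 0 peaks, 0 genes and, for limb buds, 0 peaks inside the spans, while the ECC peak was left. This cut-off is unlike across the lists. The median fold enrichment was 26.46 in the ECC list, above it, and 14.37 and 15.17 in the limb bud and PNST lists, below it. With genes within 10000 bp, all 3 tissues had 0 peaks and 0 genes. With only the nearer gene counted, limb buds and PNST cells had 0 peaks and 0 genes. The share over all genes is not given for the fold enrichment, 10000 bp and nearer-gene settings. Their 0 counts therefore cannot be read as a result about Hox genes. By position in the annotation, the genes with a peak were 3, 6 and 1 in ECCs, limb buds and PNST cells. Spans widened by 50000 bp on each side held 1 peak in ECCs and 1 in PNST cells. Merging peaks within 200 bp changed no count.

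Chosen after the data were seen: by position from the gene start, ECCs had 2 genes and limb buds 6 (5.26% and 15.8%, beside 32.2% and 77.4% of all protein-coding genes), and with the Hoxb span begun at Hoxb9, 0 limb bud peaks were inside a span. Counting only peaks with under 50% repeated 32-mers left 0 in limb buds and 0 in PNST cells, and the 1 peak of ECCs. Of all placed peaks only 1.35% in limb buds, 3.83% in PNST cells and 5.1% in ECCs were under 50%. The 0 counts thus tell nothing particular about the Hox regions. No value could be had for the E-box share, the promoter share or the tags per 100 bp where no peak was left. The low tag numbers (5 to 10 in 5 of the 6 peaks) limit what could be detected, most of all in ECCs, and a peak missing from a list may lie below its depth.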

Other observations

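The nearest ECC peaks on both sides of the Hoxb cluster lay in unique sequence. Besides the Hoxb1 region, this was a peak inside Ttll6, a tubulin-modifying enzyme gene, 55 kb beyond Hoxb13 (chr11:96000444-96000615), with 5 tags, a fold enrichment of 28.86 and 0% repeated 32-mers, where 1.25% of the placed ECC peaks had none repeated. These were the only ECC peaks within 500 kb of a Hox cluster without a repeated 32-mer, 2 of 16. In limb buds 0 of 65 and in PNST cells 0 of 7 had none repeated, beside 0.117% and 0.276% of all placed peaks. These 0 counts thus tell nothing particular about the flanks. This comparison was chosen after the values were seen and was not tested. The nearest PNST peaks beyond Hoxa13 and beyond Hoxd13 were both strong and far away, 51 tags at a fold enrichment of 100.25 inside Pde1c, 3973 kb from the Hoxa span, and 22 tags at 57.65 inside Atf2, 800 kb from the Hoxd span.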
